A study of Mus musculus with 12 samples.

Results

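The cochlea, the spiral hearing organ of the inner ear, was compared between mice that drank green tea extract (GTE) and mice that drank plain water. The comparison took the 4 GTE libraries and the 4 control libraries, chosen by their titles, which are 8 of the 12 libraries of the study. All mice were wild-type C57BL/6J, an inbred strain known for early loss of hearing with age, and all were 12 months old when the cochleae were taken. GTE mice had 0.006% green tea extract in the drinking water from 3 to 12 months of age, and control mice had water without an additive over the same months. Another group of 4 libraries came from mice given 0.1% black coffee and entered the fit to share its estimate of spread. It is otherwise quoted beside some genes and gene lists and compared at the end. Of the 34538 genes in the files, 15264 had at least 1 FPKM (fragments on a gene divided by its length and by the depth of the library) in at least 4 of the 8 libraries and were tested.

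Green tea extract is rich in catechins, polyphenols best known as antioxidants, and also carries caffeine. The cochlea works through cells with very different duties. Hair cells turn vibration into electrical signals, the stria vascularis pumps the potassium that drives them, fibrocytes of the spiral ligament recycle it, and spiral ganglion neurons carry the signal to the brain. The organ sits in bone, so that a dissected cochlea brings marrow, bone, vessels and scraps of neighbouring tissue along. In such bulk RNA, fewer cells of a type and less RNA per cell cannot be told apart. Whether each library came from its own mouse is not stated, and a p-value here speaks only for the variation among these libraries, some of which may be technical.

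The cochlear origin of the libraries was visible in Coch, which encodes cochlin, the main protein of the spiral ligament. It lay at 1442, 2141, 2035 and 2146 FPKM in GTE libraries, against 2298, 2313, 2335 and 2317 FPKM in control libraries. Hair cell genes were measured too, for example the hair cell motor Myo7a at 5.24, 5.17, 5.50 and 4.42 FPKM in GTE and at 5.65, 6.17, 4.55 and 4.04 FPKM in control. The depth behind these values, recovered from the steps in FPKM, was 22991209 to 24629529 fragments in GTE libraries and 20526024 to 24835934 in control libraries. With it, 3 fragments on a gene of 2000 bases come to between 0.0604 and 0.0731 FPKM, a floor for counting error only.

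The library GTE 1 stood apart before any gene was tested. It scored -59.2 on the first principal component, which held 41.2% of the variance, while the other 7 libraries scored between -3.70 and 21.3. The correlations of log2(FPKM + 1) within a group ran between 0.919 and 0.974 in GTE and between 0.953 and 0.976 in control. Mitochondrially encoded genes took between 7.83% (GTE 1) and 14.1% of the summed FPKM in GTE libraries, against between 10.6% and 14.6% in control libraries. Counts of gene groups are therefore given with and without GTE 1 where this library moves them.

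Across all tested genes the GTE and control cochleae were close. The median log2 difference was 0.006, with quartiles of -0.109 and 0.123, and 51.4% of the genes lay above control and 48.6% below. Without GTE 1 these shares were 55.7% above and 44.3% below. Only 1 of 15264 genes (0.00655%) passed the limma test at an adjusted p under 0.05, the collagen chaperone gene Serpinh1. At an unadjusted p under 0.05 there were 1303 genes (8.54%), 628 higher in GTE (4.11%) and 675 lower (4.42%). The higher side held 48.2% of these genes, but 38.1% after quantile normalization, 39.1% after median-ratio scaling and 62.4% with the mean of the neutrophil granule genes as a covariate. All 4 GTE values lay outside the range of all 4 control values for 898 genes (5.88%), 436 above it (2.86%) and 462 below it (3.03%). Without GTE 1, no gene passed after adjustment and 919 genes (6.02%) had an unadjusted p under 0.05, 518 higher (3.39%) and 401 lower (2.63%). The gene groups below are to be read against these shares.

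**Figure D1:**
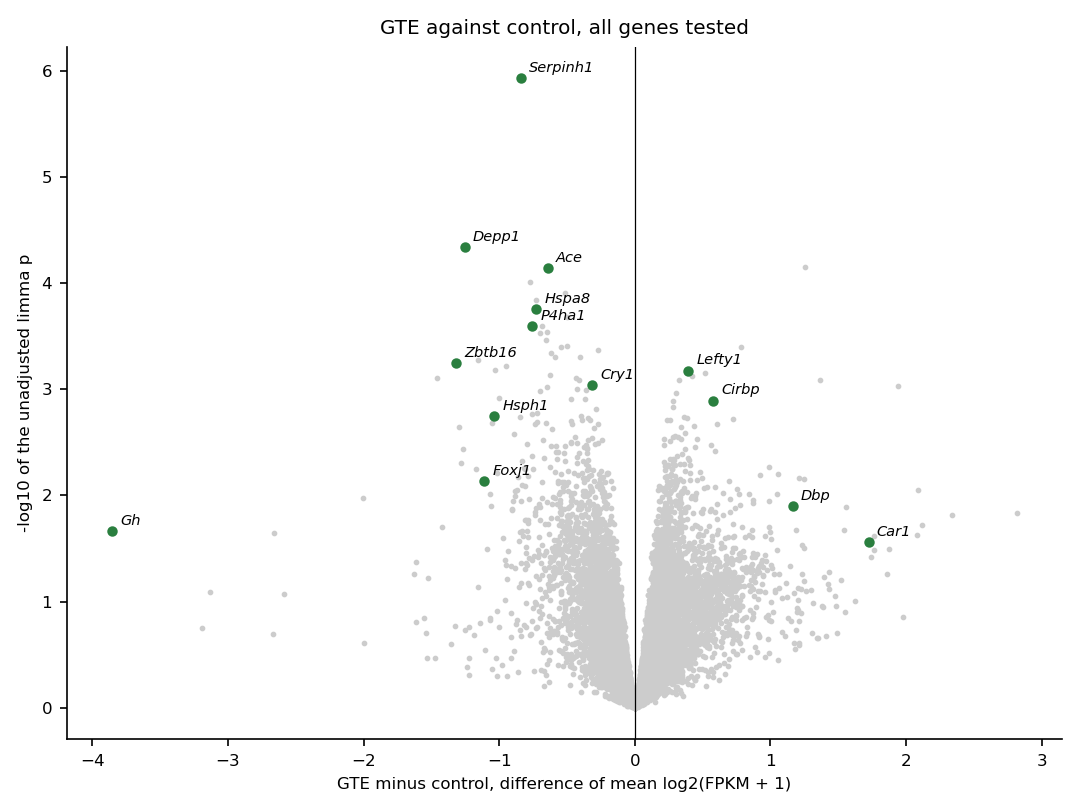
Each point is 1 of the 15264 tested genes, with the GTE minus control difference of mean log2(FPKM + 1) on the x axis and the negative log10 of the unadjusted limma p on the y axis. Labelled green points are genes named in the text, with Serpinh1 at the top on the lower side and the pituitary hormone gene Gh farthest to the left.

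Serpinh1 encodes HSP47, a chaperone of the endoplasmic reticulum that binds folding procollagen. The gene (ENSMUSG00000070436) lies on the minus strand of chromosome 7 of mm10, at chr7:99345376-99353239. It had 81.0, 91.1, 104 and 81.0 FPKM in GTE cochleae, against 172, 157, 164 and 147 FPKM in control cochleae. Every GTE library lay below every control library, with a gap wider than the spread within either group. Serpinh1 fell by 0.84 ± 0.09 (SE) on the log2 scale in GTE (limma, adjusted p = 0.0179; two-sided exact permutation p = 0.0286, the lowest value possible with groups of 4). Its size moved little with the processing, with log2 differences between -0.92 and -0.80 over 26 alternative settings, but the adjusted p passed in only 13 of them and lay between 0.00725 and 0.177. The call was lost without GTE 1 (adjusted p = 0.0646), GTE 2 (0.103) or GTE 4 (0.101), without control 1 (0.123), control 2 (0.102) or control 3 (0.128), and without coffee 2 or coffee 4 (0.0579 each). It was also lost in a fit of the 8 libraries alone (adjusted p = 0.177), with mitochondrial genes left out (0.0678) and with the mean of the neutrophil granule genes as a covariate (0.0710).

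The 250 bases upstream of the Serpinh1 start in RefSeq (GRCm38.p6, chr7:99353240-99353489, minus strand) are shown because this is the gene that passed.
Serpinh1: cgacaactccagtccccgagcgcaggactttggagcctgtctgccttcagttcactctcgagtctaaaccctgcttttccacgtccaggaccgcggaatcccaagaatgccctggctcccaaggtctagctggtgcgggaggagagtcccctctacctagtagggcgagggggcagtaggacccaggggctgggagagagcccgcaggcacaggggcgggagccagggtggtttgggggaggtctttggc
It was searched on both strands for a heat shock element (GAA, TTC and GAA, with 2 bases of any kind between neighbours) and for the endoplasmic reticulum stress response element (CCAAT, 9 bases of any kind, CCACG). Neither pattern occurs in this window, hence no capitals.

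Serpinh1 was not alone among the enzymes and chaperones that prepare collagen. Of the 29 tested members of that group, 22 lay below control and 7 above, with a median of -0.18 on the log2 scale. With the unadjusted threshold of 0.05, 8 members were lower in GTE and 0 higher, and 5 were lower without GTE 1. P4ha1, a catalytic subunit of the prolyl 4-hydroxylase that stabilizes the collagen helix, had 12.0, 13.2, 19.2 and 13.1 FPKM in GTE and 26.5, 22.6, 28.2 and 21.6 FPKM in control. These groups did not overlap, although GTE 3 came close to control 4 (log2 difference -0.76 ± 0.14, unadjusted p = 0.000254, adjusted p = 0.345). Loxl1, a lysyl oxidase that cross-links elastin, had 10.6, 12.9, 12.3 and 14.2 FPKM in GTE and 18.8, 17.9, 16.6 and 12.9 FPKM in control. Control 4 lay inside the GTE range (log2 difference -0.38 ± 0.12, unadjusted p = 0.00741). Other members with the smallest p were the lysyl hydroxylase Plod1 (-0.23), the prolyl 4-hydroxylase subunit P4ha2 (-0.50) and the prolyl 3-hydroxylase P3h3 (-0.27). The prolyl 3-hydroxylase P3h1, chosen with Sparc and Col1a1 after their values were seen, had a difference of -0.03 ± 0.09. Sparc, an abundant collagen-binding matrix protein, had 317, 327, 309 and 289 FPKM in GTE and 395, 411, 371 and 282 FPKM in control, which overlap.

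The collagen chains themselves were a little lower as a group and very uneven between libraries. Of 24 tested chains, 20 lay below control, with a median of -0.18, and of -0.31 for coffee against the same controls. Below an unadjusted p of 0.05 were 8 chains that were lower and 0 that were higher. That count was 3 without control 1, 4 without GTE 1, and 5 without each of GTE 2, control 2 and control 3. The chains with the smallest p belonged to vessel and basement membranes and to the loose matrix. Col18a1, the chain that carries endostatin, had 3.23, 4.56, 4.75 and 5.68 FPKM in GTE and 7.26, 5.89, 9.80 and 7.28 FPKM in control (-0.62 ± 0.18, unadjusted p = 0.00534). Col4a1, the basement membrane chain, had 11.2, 9.18, 9.50 and 10.1 FPKM in GTE and 14.3, 13.4, 14.5 and 12.3 FPKM in control (-0.41 ± 0.14, unadjusted p = 0.0126). In both chains the groups did not overlap. The fibrillar bone collagen Col1a1 ranged between 64.4 and 359 FPKM in GTE and between 83.5 and 335 FPKM in control, and its difference was -0.04 ± 0.62, between -0.41 without GTE 1 and 0.41 without GTE 4. Eln, which encodes elastin and is named here after its values were seen, had 1.93, 2.17, 2.14 and 1.94 FPKM in GTE and 3.496, 3.59, 8.37 and 6.72 FPKM in control. Its GTE values were tightly grouped below all control values, which split into a low and a high pair (-1.03 ± 0.22, unadjusted p = 0.000654, adjusted p = 0.369).

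The endoplasmic reticulum, where collagens and other secreted proteins fold, answers an overload of unfolded protein by raising chaperones through the factors ATF6, XBP1 and ATF4. A known switch for this is the endoplasmic reticulum stress response element, and the 19 bases that match it are shown for the genes of the chaperone list that carry it. Of the 28 list members, 25 had a RefSeq promoter, and 8 of these (32.0%) held the element within 250 bases upstream of the start, on either strand, against 0.13% of 27025 genes. Capitals mark the fixed letters, and each element is written in the direction that reads CCAAT first. Their positions in GRCm38.p6 follow the sequences.
Hspa5: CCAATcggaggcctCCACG (chr2:34772025-34772043, plus strand)
Syvn1: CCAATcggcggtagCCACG (chr19:6046532-6046550, plus strand)
Creld2: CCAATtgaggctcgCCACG (chr15:88819520-88819538, minus strand)
Dnajc3: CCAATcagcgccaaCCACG (chr14:118937827-118937845, plus strand)
Pdia6: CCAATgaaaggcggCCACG (chr12:17266491-17266509, plus strand)
Canx: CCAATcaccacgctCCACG (chr11:50325800-50325818, minus strand)
Calr: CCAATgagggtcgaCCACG (chr8:84847075-84847093, plus strand)
Hsp90b1, first: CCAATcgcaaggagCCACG (chr10:86705638-86705656, minus strand)
Hsp90b1, second: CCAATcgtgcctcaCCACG (chr10:86705533-86705551, plus strand)
The Hspa5 element lies 65 to 47 bases before the start, in the 250 bases of chr2:34771840-34772089, where capitals mark all 19 of its bases.
Hspa5: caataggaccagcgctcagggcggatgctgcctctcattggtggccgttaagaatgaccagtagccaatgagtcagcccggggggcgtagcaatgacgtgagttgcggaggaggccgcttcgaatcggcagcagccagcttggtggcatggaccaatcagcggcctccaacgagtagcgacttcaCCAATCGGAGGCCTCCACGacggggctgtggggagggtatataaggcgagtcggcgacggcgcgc

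Of the 28 tested members of this list, 22 lay below control and 6 above, with a median of -0.17, and 11 were lower at an unadjusted p under 0.05 while 0 were higher. Leaving out any 1 of the 8 libraries kept the count of lower members between 9 and 12, and for 10 members the groups did not overlap. Hspa5 encodes BiP, the main chaperone of the compartment. It had 129, 131, 137 and 123 FPKM in GTE and 214, 159, 251.4 and 190 FPKM in control, so that the GTE values were nearly equal and all below the lowest control (-0.63 ± 0.14, unadjusted p = 0.000725, adjusted p = 0.369). Creld2, a secreted stress protein, had 29.8, 29.6, 32.8 and 28.5 FPKM in GTE and 47.1, 38.7, 57.1 and 42.6 FPKM in control (-0.59 ± 0.12, unadjusted p = 0.000492). Manf, a neurotrophic factor released under this stress, had 14.6, 15.8, 14.3 and 13.5 FPKM in GTE and 22.4, 18.2, 26.2 and 20.5 FPKM in control (-0.54 ± 0.11, unadjusted p = 0.000402, with 9.3% of its exon bases shared with other genes). In all 3 genes the control libraries had the same order, with control 3 highest and control 2 lowest.

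Further down the list, the ubiquitin ligase Syvn1, which marks misfolded proteins for disposal, had 13.996, 11.8, 13.9 and 10.5 FPKM in GTE and 17.0, 15.5, 17.6 and 14.3 FPKM in control (-0.35 ± 0.10, unadjusted p = 0.00524). Xbp1, the factor of the pathway that is activated by splicing, had 63.3, 57.8, 61.9 and 53.4 FPKM in GTE and 84.5, 70.03, 93.3 and 72.7 FPKM in control (-0.43 ± 0.10, unadjusted p = 0.00100). Hyou1, a large chaperone of the same compartment (-0.41), Herpud1, a disposal adaptor (-0.52), and Dnajb9, a partner of BiP (-0.51), were other members without overlap. Among carriers of the element the values were uneven. Dnajc3, an inhibitor of the kinase PERK, differed by -0.28 ± 0.12 (unadjusted p = 0.0419), Hsp90b1 (GRP94) by -0.20 ± 0.10 (0.0666; 12.4% of exon bases shared) and the disulfide isomerase Pdia6 by -0.18 ± 0.12 (0.159). The lectin chaperones Calr and Canx differed by -0.08 ± 0.11 and -0.01 ± 0.07, within the spread between libraries. Atf4, the factor of the amino acid branch, had 104, 99.6, 84.8 and 92.3 FPKM in GTE and 83.1, 86.4, 113 and 85.2 FPKM in control, a difference of 0.06 ± 0.12.

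Heat shock proteins of the cytosol and mitochondria keep proteins folded and are raised together by the factor HSF1. All 24 tested members of this list lay below control in GTE, with a median of -0.31 and a median of -0.27 without GTE 1. Under an unadjusted p of 0.05, 13 were lower and 0 higher, and between 10 and 15 were lower when any 1 of the 8 libraries was left out. For 7 members the groups did not overlap. With the granule gene mean as a covariate the list median was -0.24.

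Hspa8, the constitutive HSC70 and the most abundant of the named members, had 303, 319, 425 and 321 FPKM in GTE and 593, 530, 648 and 486 FPKM in control. GTE 3 was the highest GTE library, and the groups did not overlap (-0.73 ± 0.13, unadjusted p = 0.000176, adjusted p = 0.336). Hsph1, a large HSP110 that recharges HSP70, had 12.9, 17.1, 25.9 and 20.8 FPKM in GTE and 40.3, 35.0, 56.6 and 29.8 FPKM in control (-1.04 ± 0.26, unadjusted p = 0.00178). Dnaja1, a co-chaperone of HSP70, had 26.5, 29.9, 37.6 and 31.1 FPKM in GTE and 50.2, 43.1, 62.6 and 43.2 FPKM in control (-0.65 ± 0.15, unadjusted p = 0.000946, with 9.9% of its exon bases shared). Stip1, which links HSP70 to HSP90 (-0.40), and Ahsa1, which speeds the HSP90 cycle (-0.33), did not overlap either. The most stress-responsive member, Hspa1b, had 2.63, 7.08, 13.2 and 5.77 FPKM in GTE and 28.2, 21.0, 82.1 and 12.8 FPKM in control. GTE 3 reached just above control 4 there (-2.01 ± 0.65, unadjusted p = 0.0105), and its near-identical neighbour Hspa1a showed the same order, so that reads of the pair may have been split between them. Hsf1 itself differed by -0.19 ± 0.08 (unadjusted p = 0.0362). Of the 18 members with a RefSeq promoter, 2 (11.1%) held the heat shock element within 250 bases upstream, on either strand, the neighbours Hspe1 and Hspd1, whose matches are the same bases of 1 shared promoter read on opposite strands, against 0.514% of 27025 genes. Their differences were -0.23 ± 0.07 and -0.15 ± 0.08. Both share exon bases with other measured genes (7.6% and 4.2%).

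**Figure D2:**
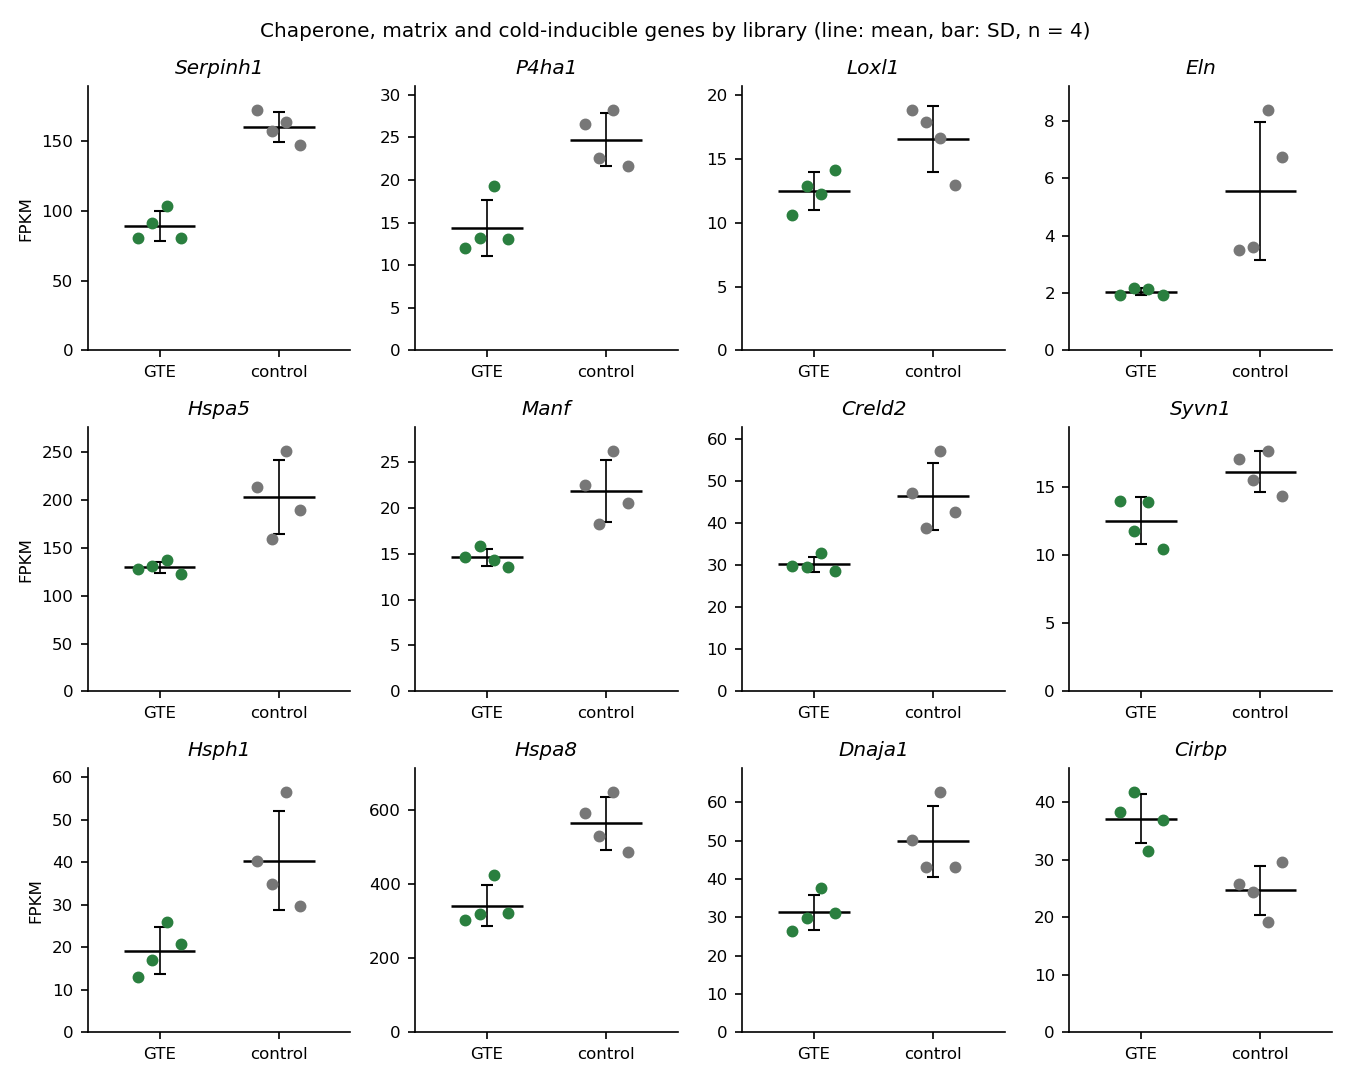
FPKM of 12 genes in each of the 4 GTE and 4 control libraries, with the mean (line) and SD (bar) of each group; each panel has its own axis from 0. Serpinh1, the only gene past the adjusted threshold, lies between 81.0 and 104 FPKM in GTE and between 147 and 172 FPKM in control, and Cirbp is the gene in which GTE lies above control.

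A pair of cold-inducible RNA-binding proteins, which are raised by mild cooling and lowered by heat, lay on the other side. Cirbp had 38.3, 41.8, 31.5 and 36.9 FPKM in GTE and 25.8, 24.3, 19.3 and 29.5 FPKM in control, without overlap (0.58 ± 0.14, unadjusted p = 0.00127, adjusted p = 0.424). Rbm3, looked up after the values of Cirbp were seen, had 42.9, 29.0, 25.1 and 26.6 FPKM in GTE and 21.3, 17.8, 22.6 and 19.03 FPKM in control (0.57 ± 0.15, unadjusted p = 0.00337). GTE 1 was the highest of these Rbm3 values, and without it the difference was 0.40. Cirbp in the coffee libraries averaged 25.1 FPKM, near control, and Rbm3 averaged 31.7 FPKM, near GTE.

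Glucocorticoids, the adrenal hormones with a daily rhythm, act on the inner ear through a receptor that raises a well-known set of genes. Of 18 tested genes of this set, 17 lay below control in GTE, with a median of -0.59. Under an unadjusted p of 0.05, 10 were lower and 0 higher, between 9 and 14 when 1 of the 8 libraries was left out, and 9 did not overlap. Zbtb16, a zinc finger factor and one of the sharpest responders, had 1.79, 2.53, 5.51 and 3.92 FPKM in GTE and 8.65, 8.10, 9.31 and 12.5 FPKM in control (-1.32 ± 0.28, unadjusted p = 0.000565, adjusted p = 0.369). Fkbp5, a co-chaperone that restrains the receptor, had 10.9, 9.42, 11.5 and 7.91 FPKM in GTE and 19.8, 13.99, 16.5 and 25.8 FPKM in control (-0.85 ± 0.21, unadjusted p = 0.00184). Tsc22d3, which encodes the anti-inflammatory GILZ, had 33.5, 24.8, 33.4 and 26.3 FPKM in GTE and 70.6, 35.9, 42.7 and 58.6 FPKM in control (-0.76 ± 0.21, unadjusted p = 0.00426). All 3 genes were separate between the groups, and controls 1 and 4 were the highest controls in Fkbp5 and Tsc22d3.

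The cell cycle inhibitor Cdkn1a had 25.7, 33.8, 31.5 and 30.9 FPKM in GTE and 39.0, 48.0, 53.3 and 62.5 FPKM in control (-0.70 ± 0.14, unadjusted p = 0.000294). The kinase gene Map3k6 (-0.64) and the transcription factor Klf9 (-0.68) were the other named members without overlap. Sgk1, a kinase that controls sodium channels (-0.36 ± 0.19, unadjusted p = 0.0935), and Mt1, a metallothionein (-0.43 ± 0.23, 0.0816), overlapped between the groups. The list median of coffee against these same controls was -0.45. Zbtb16 averaged 4.63 FPKM in coffee.

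The circadian clock is a loop in which the activators CLOCK and BMAL1 (Arntl) drive the repressors Per and Cry as well as Nr1d1 and Dbp. Its genes differed in both directions. Of 19 tested members, 2 were higher and 6 lower at an unadjusted p under 0.05, and the list median was -0.02. Higher were Dbp and Nr1d1. Dbp, a rhythmic output factor, had 11.5, 19.2, 29.3 and 16.6 FPKM in GTE and 11.4, 7.44, 5.65 and 6.72 FPKM in control (1.16 ± 0.39, unadjusted p = 0.0126, adjusted p = 0.533). GTE 1 and control 1 were nearly equal, and 18.0% of the exon bases of Dbp are shared with another gene. Nr1d1, which encodes the repressor REV-ERB alpha, had 20.1, 33.3, 33.8 and 27.6 FPKM in GTE and 19.1, 17.46, 14.3 and 17.1 FPKM in control (0.70 ± 0.23, unadjusted p = 0.0109; 8.5% shared).

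Arntl, a gene that REV-ERB alpha represses, had 1.76, 2.17, 1.58 and 2.21 FPKM in GTE and 2.67, 3.96, 3.77 and 3.60 FPKM in control (-0.62 ± 0.17, unadjusted p = 0.00343). Cry1, another of its targets, had 6.01, 4.996, 6.16 and 5.29 FPKM in GTE and 7.198, 7.58, 7.28 and 6.82 FPKM in control (-0.32 ± 0.07, unadjusted p = 0.000911). Nfil3, also repressed by REV-ERB alpha and the counterpart of DBP, had 12.0, 6.57, 4.87 and 5.79 FPKM in GTE and 15.2, 10.1, 15.0 and 12.5 FPKM in control. Only GTE 1 reached into the control range, and without it the difference was -1.07 (unadjusted p = 0.000109). Npas2, a partner of BMAL1, differed by -0.45 ± 0.19 and Per1 by -0.56 ± 0.23 (unadjusted p = 0.0411 and 0.0323). Per2 (-0.35 ± 0.33) and Per3 (0.30 ± 0.25) overlapped. The count of lower members was 3 without control 4, against 6 in all. The times of day at which the mice were killed were not stated. The E-box CACGTG, the site of the activators, occurs within 250 bases upstream of 5 of the 16 clock genes with a RefSeq promoter (31.2%), Per1, Cry1, Tef, Ciart and Bhlhe41, against 6.86% of 27025 genes. Tef, Ciart and Bhlhe41 differed by 0.12, 0.08 and -0.17, so that the carriers had no common direction.

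**Figure D3:**
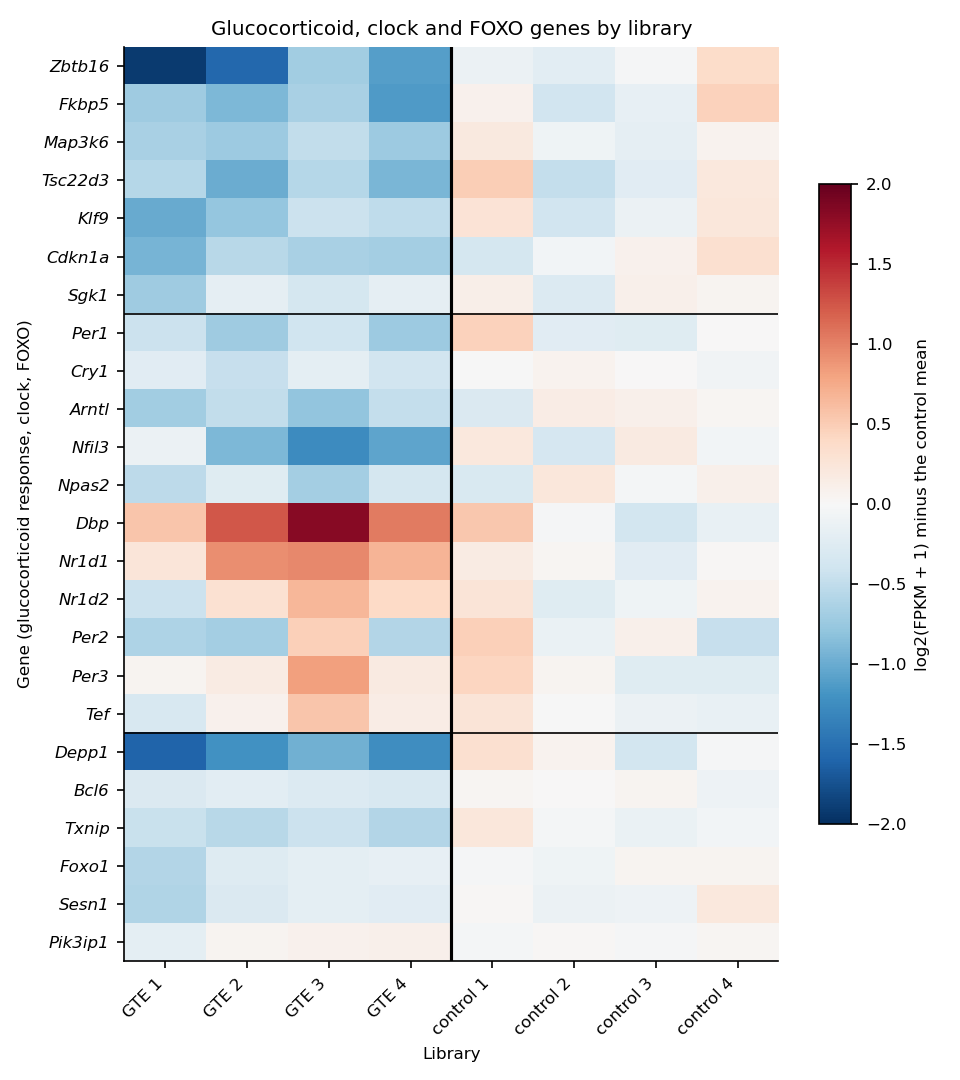
Log2(FPKM + 1) of 24 genes minus the mean of the 4 control libraries (colour, blue below and red above), with the 4 GTE libraries on the left and the 4 control libraries on the right. Horizontal lines separate glucocorticoid response, clock and FOXO genes; Dbp and Nr1d1 are red in GTE while Arntl, Cry1 and Depp1 are blue.

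Immediate early genes, which answer stimulation within minutes, lay low as a group without single genes standing out. Of 18 tested, 17 lay below control, with a median of -0.24, and 2 had an unadjusted p under 0.05, between 0 and 3 with 1 of the 8 libraries left out (0 without control 1, and 1 without GTE 2, GTE 4 or control 4). Jun, a subunit of the factor AP-1, had 11.5, 15.97, 16.2 and 17.0 FPKM in GTE and 21.0, 18.5, 21.2 and 18.7 FPKM in control (-0.38 ± 0.14, unadjusted p = 0.0217; 7.3% of exon bases shared). GTE 1 had the highest mean of the list among the GTE libraries.

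FOXO factors switch on genes of fasting and stress when insulin signalling is low, and AMP-activated kinase is the sensor of low energy. Of 20 tested genes of this list, 8 lay above control and 12 below, with a median of -0.05. At an unadjusted p under 0.05, 5 were lower and 0 higher, and the 5 did not overlap between the groups. The count stayed at 5 when any of the 8 libraries was left out. Depp1, a FOXO target, had 1.30, 2.003, 2.59 and 1.94 FPKM in GTE and 7.72, 6.31, 4.39 and 5.85 FPKM in control. It had the second smallest p of all genes (-1.25 ± 0.20, unadjusted p = 4.53e-05, adjusted p = 0.274). Bcl6, a repressor and FOXO target, had 9.05, 9.58, 9.20 and 8.90 FPKM in GTE and 11.6, 11.3, 11.8 and 10.5 FPKM in control (-0.27 ± 0.06, unadjusted p = 0.000429).

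Txnip, which binds thioredoxin and limits glucose uptake, had 67.0, 61.8, 67.6 and 60.7 FPKM in GTE and 107, 88.5, 83.5 and 88.0 FPKM in control (-0.50 ± 0.10, unadjusted p = 0.000394; 19.4% of exon bases shared). Foxo1 itself differed by -0.30 ± 0.09 and the stress sensor Sesn1 by -0.33 ± 0.10. The catalytic kinase subunit Prkaa1 had 15.4, 15.8, 16.8 and 16.5 FPKM in GTE and 13.999, 14.5, 15.5 and 15.2 FPKM in control, a difference of 0.12 ± 0.06 (unadjusted p = 0.0939). Arrdc2, an arrestin-related gene outside the lists, had 10.01, 8.33, 10.7 and 10.6 FPKM in GTE and 31.7, 15.3, 23.5 and 25.4 FPKM in control (-1.16 ± 0.24, unadjusted p = 0.000527).

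Vessel genes were lower by small amounts. Of 16 tested endothelial genes, 15 lay below control in GTE, with a median of -0.19, and 6 were lower at an unadjusted p under 0.05. That count lay between 4 and 9 when 1 of the 8 libraries was left out, with 9 without control 3. Ace, which encodes the angiotensin-converting enzyme of vessel walls, had 2.93, 2.31, 2.81 and 2.86 FPKM in GTE and 4.90, 4.64, 4.80 and 4.87 FPKM in control. The controls were nearly equal and every GTE library lay far below them (-0.64 ± 0.11, unadjusted p = 7.17e-05, adjusted p = 0.274; 5.6% of exon bases shared). Nos3, the endothelial nitric oxide synthase, had 1.204, 1.02, 1.48 and 1.21 FPKM in GTE and 1.77, 1.93, 1.79 and 1.89 FPKM in control (-0.35 ± 0.10, unadjusted p = 0.00368), but 32.3% of its exon bases are shared with another gene. Pecam1, the adhesion molecule of all endothelium, had 12.1, 9.07, 10.7 and 9.93 FPKM in GTE and 13.2, 11.8, 12.6 and 12.9 FPKM in control (-0.26 ± 0.09, unadjusted p = 0.0135). The membrane trafficking gene Ehd2, common in endothelium and fat, differed by -0.50 ± 0.09 (unadjusted p = 0.000207). The summed level of the endothelial list was between 129 and 149 FPKM in GTE libraries and between 145 and 173 FPKM in control libraries, and 0 of its members were at 0 in all 8 libraries. The part of vessel content in the differences of Ace and Nos3 was not tested.

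Several more genes stood among the smallest p-values on the lower side. Tspan11, a tetraspanin, had 3.69, 5.46, 5.48 and 6.51 FPKM in GTE and 10.04, 9.40, 9.56 and 9.26 FPKM in control (-0.77 ± 0.13, unadjusted p = 9.64e-05, adjusted p = 0.294). Acer2, an alkaline ceramidase, differed by -0.73 ± 0.13, the ubiquitin ligase adaptor Spsb1 by -0.51 ± 0.09 and Grrp1 by -0.68 ± 0.13. H19, a long RNA expressed from the maternal allele only, had 5.28, 9.67, 7.85 and 13.0 FPKM in GTE and 40.4, 21.2, 25.4 and 18.3 FPKM in control (-1.46 ± 0.32, unadjusted p = 0.000786). On the higher side, the smallest p among genes with an established symbol and a mean of at least 2 FPKM belonged to Lefty1, an inhibitor of Nodal signalling, with 2.64, 3.21, 2.52 and 2.88 FPKM in GTE and 1.91, 2.08, 1.67 and 1.93 FPKM in control (0.39 ± 0.08, unadjusted p = 0.000665, adjusted p = 0.369). Other genes with small p on this side, beside Cirbp and antibody gene segments, were the cytoskeletal linker Gas2l3 (0.52 ± 0.11), the DNA exonuclease Exo5 (0.42 ± 0.09), the endoplasmic reticulum junction gene Lnpk (0.31 ± 0.07), the RNA-binding Khdrbs1 (0.28 ± 0.07) and the centriole gene Ofd1 (0.38 ± 0.09). In each of these genes the groups did not overlap.

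Further lists cover the antioxidant, receptor and metabolic pathways that catechins and caffeine are known to act on. Nrf2 is the factor that raises antioxidant and conjugating enzymes when catechins are oxidized. Of its 21 tested targets, 1 was higher at an unadjusted p under 0.05 and 0 lower, with a median of -0.00. The 1 gene was Gclm, and without GTE 1, control 2 or control 4 no target was higher, while 1 was lower without control 3 or control 4. Gclm, the regulatory subunit of glutathione synthesis, had 15.6, 11.1, 11.8 and 10.6 FPKM in GTE and 10.6, 9.11, 9.99 and 8.53 FPKM in control (0.32 ± 0.13, unadjusted p = 0.0314). GTE 1 was the highest, and without it the difference was 0.20 (unadjusted p = 0.0908). Nqo1, the quinone reductase used as the standard readout of Nrf2, had 11.7, 16.6, 13.2 and 15.2 FPKM in GTE and 12.9, 11.9, 14.6 and 16.4 FPKM in control (0.02 ± 0.12, unadjusted p = 0.873). Hmox1, the stress-induced heme oxygenase, differed by 0.11 ± 0.29, and by -0.10 without GTE 1.

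Of 20 antioxidant enzymes, 9 lay above control and 11 below, with a median of -0.02. At an unadjusted p under 0.05, 3 were lower and 0 higher. Sod3, the superoxide dismutase of the extracellular matrix, had 6.38, 8.90, 11.2 and 9.04 FPKM in GTE and 20.8, 21.4, 13.7 and 16.2 FPKM in control (-0.95 ± 0.20, unadjusted p = 0.000602, adjusted p = 0.369). Gpx3, the secreted glutathione peroxidase, had 257, 355, 320 and 361 FPKM in GTE and 428, 485, 462 and 393 FPKM in control (-0.46 ± 0.16, unadjusted p = 0.0148). Gpx7, a peroxidase of the endoplasmic reticulum, differed by -0.27 ± 0.09, and its groups overlapped. The cytosolic Sod1 lay between 272 and 302 FPKM in GTE and between 304 and 339 FPKM in control, without overlap (-0.13 ± 0.09, unadjusted p = 0.168). On the higher side, Txnrd2 did not overlap either (0.33 ± 0.16, unadjusted p = 0.0649).

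The aryl hydrocarbon receptor, which catechins are known to block in cell assays, had 7 tested genes, of which 1 was lower and 0 higher (2 lower without GTE 2). This was Cyp1b1, with 22.9, 29.3, 27.3 and 31.4 FPKM in GTE and 35.3, 33.2, 40.9 and 40.4 FPKM in control (-0.43 ± 0.11, unadjusted p = 0.00320). Its GTE minus coffee difference was 0.15 (unadjusted p = 0.218), so it was not lower in GTE than in coffee. The list median was -0.03 in GTE and -0.30 in coffee against the same controls. The other 4 of the 11 listed genes, Cyp1a1 among them, did not reach 1 FPKM in any of the 8 libraries and were not tested. Of 7 tested proteins that bind or conjugate catechins, 1 was higher and 1 lower, and neither count held without GTE 1 or without control 4, where both were 0. The lower gene was the sulfotransferase Sult1a1 (-0.41 ± 0.16, unadjusted p = 0.0258). Rpsa, the laminin receptor that binds the catechin EGCG, differed by 0.21 ± 0.14. Of 10 tested genes of adenosine receptors and handling, the targets of caffeine, 0 had an unadjusted p under 0.05 (1 without GTE 3, GTE 4, control 2 or control 3), with Adora1 at -0.14 ± 0.24 and Adora2a at 0.15 ± 0.21. For 18 cholesterol synthesis genes the count was 0 as well, and 4 were higher without control 2. In the BCL2 and caspase list 1 of 20 was higher and 1 was lower, the survival gene Bcl2l1 (-0.23). Without GTE 1, or without any 1 of controls 1, 2 and 4, neither direction had a member at that threshold, while 3 were lower without GTE 2 and 2 were higher without GTE 3 or GTE 4.

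The gene groups of the cochlear cell types were lower by amounts that depended on GTE 1. Of 19 tested genes of the stria vascularis, 16 lay below control, with a median of -0.25, -0.15 without GTE 1 and -0.07 with the granule covariate. Coffee against the same controls had a median of -0.54 for this list. Lower with an unadjusted p under 0.05 were 3, 2 without GTE 1 and 5 without GTE 3, and for 6 the groups did not overlap. Kcnq1, the potassium channel through which the stria secretes into the endolymph, had 7.13, 10.95, 11.8 and 12.0 FPKM in GTE and 12.2, 13.4, 14.3 and 12.3 FPKM in control (-0.31 ± 0.19, unadjusted p = 0.130). GTE 1 was low and the other 3 lay just under the controls, and without GTE 1 the difference was -0.15.

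For the spiral ligament, 0 of 14 fibrocyte genes had an unadjusted p under 0.05, and the list median was -0.11 with GTE 1 and 0.05 without it. In coffee against the same controls it was -0.59. Coch differed by -0.27 ± 0.21. The gap junction gene Gjb2 differed by -0.17 ± 0.21, and by 0.04 without GTE 1. Among 7 genes of the outer sulcus 1 was higher (0 without GTE 1, control 2 or control 4). This was the carbonic anhydrase Car2 (0.43 ± 0.17, unadjusted p = 0.0275, and 0.33 without GTE 1), which is also a member of the red cell precursor and osteoclast lists. Bmp6, a bone morphogenetic protein, lay between 19.7 and 31.6 FPKM in GTE and between 25.5 and 36.9 FPKM in control (-0.12 ± 0.19). Pigment cell genes had 9 of 10 members below control and a median of -0.21, which was -0.07 without GTE 1 and 0.02 with the granule covariate.

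Hair cell genes were lower mainly in GTE 1. Of 24 tested, 20 lay below control, with a median of -0.18, but the median was -0.01 without GTE 1. At an unadjusted p under 0.05, 3 were lower, and this count was 0 without GTE 1, control 1 or control 2, and 1 without GTE 2, GTE 3 or control 4. The outer hair cell motor prestin, Slc26a5, had 1.82, 1.57, 2.24 and 2.53 FPKM in GTE and 2.87, 3.31, 2.94 and 3.01 FPKM in control (-0.42 ± 0.18, unadjusted p = 0.0411). Ocm, which encodes oncomodulin, the calcium buffer of outer hair cells, had 27.4, 35.9, 34.3 and 31.6 FPKM in GTE and 47.7, 49.8, 48.2 and 44.7 FPKM in control (-0.55 ± 0.25, unadjusted p = 0.0466). In both genes all GTE libraries lay below all control libraries, and both averaged lower still in coffee, at 1.499 and 21.2 FPKM. Otof, the synaptic calcium sensor strongest in inner hair cells, ranged between 4.61 and 12.2 FPKM in GTE and between 5.75 and 13.7 FPKM in control (-0.17 ± 0.30, and 0.08 without GTE 1). Among 21 genes of supporting cells and the tectorial membrane, 1 was lower, the Notch ligand Jag1, with 5.02, 6.62, 6.76 and 6.69 FPKM in GTE and 8.45, 7.86, 8.51 and 7.75 FPKM in control (-0.34 ± 0.10, unadjusted p = 0.00658). With GTE 1 left out its difference was -0.25.

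Nerve genes leaned the other way, and more so without GTE 1. Of 28 tested neuronal genes, 22 lay above control, with a median of 0.16, 0.34 without GTE 1 and -0.01 without control 3. The neuronal median of coffee against the same controls was 0.33. The count higher with an unadjusted p under 0.05 was 1 with all libraries, 5 without GTE 1 and 3 without control 2. Pou4f1, a factor of sensory neurons, had 2.58, 2.44, 4.48 and 3.22 FPKM in GTE and 1.43, 2.65, 1.34 and 1.67 FPKM in control (0.59 ± 0.20, unadjusted p = 0.0144). Tubb3, the neuronal tubulin, had 77.8, 74.7, 132 and 140 FPKM in GTE and 80.7, 224, 40.2 and 63.5 FPKM in control. Control 2 was the highest and control 3 the lowest of the 8, and the difference was 0.30 ± 0.49, between -0.04 without control 3 and 0.78 without control 2.

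Schwann cell and myelin genes had 13 of 19 members above control and a median of 0.12, 0.35 without GTE 1 and -0.02 without control 3. The count of higher members was 1 with all libraries, 7 without GTE 1, 3 without control 4, 2 without control 2 and 0 without each of the other libraries of the 2 groups. Genes of pain-sensing neurons, which belong to other ganglia, were also higher in the median. The summed level of 10 such genes was between 32.9 and 141 FPKM in GTE and between 18.4 and 138 FPKM in control, and the median difference of the 9 tested was 1.13. P2rx3, an ATP-gated channel of these neurons, had 4.61, 7.61, 7.50 and 13.1 FPKM in GTE and 2.10, 16.6, 0.188 and 0.231 FPKM in control. The part of other ganglia in the nerve gene differences was not tested.

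Marrow genes were higher in GTE, most of all in GTE 1. All 14 primary granule genes of neutrophil precursors lay above control, with a median of 0.80, and 0.43 without GTE 1. With an unadjusted p under 0.05, 7 were higher, 1 without GTE 1 or control 2, 2 without GTE 2 or control 4, 3 without control 3 and 11 without control 1. The summed level of the list was 2683 FPKM in GTE 1 and between 773 and 1176 FPKM in the other GTE libraries. In control it was between 444 and 1038 FPKM, which overlaps that range. Elane, the neutrophil elastase, had 872, 345, 317 and 190 FPKM in GTE and 302, 183, 205 and 97.8 FPKM in control (1.00 ± 0.44, unadjusted p = 0.0449). Myb, the factor of marrow progenitors, had 8.32, 3.77, 4.56 and 3.43 FPKM in GTE and 2.85, 1.45, 2.81 and 1.38 FPKM in control, without overlap (0.92 ± 0.28, unadjusted p = 0.00646; 6.3% of exon bases shared). Late granule genes of mature neutrophils had a median of 0.29 with GTE 1 and -0.07 without it, and 0 of 16 had an unadjusted p under 0.05. Coffee against the same controls had medians of 1.15 for primary and 0.72 for late granule genes.

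Red cell precursor genes lay above control in all 26 tested, with a median of 0.83, and 0.56 without GTE 1. Their median in coffee against the same controls was 0.63. The count of higher members was 6, but 1 without GTE 1, 2 without GTE 3, control 2 or control 4, and 11 without GTE 4. Tfrc, the transferrin receptor, had 79.4, 55.8, 50.2 and 48.5 FPKM in GTE and 34.3, 32.4, 46.8 and 24.6 FPKM in control (0.75 ± 0.24, unadjusted p = 0.00876). Car1, the carbonic anhydrase of red cells, had 49.2, 10.6, 20.2 and 9.58 FPKM in GTE and 8.90, 3.63, 8.39 and 1.55 FPKM in control (1.72 ± 0.68, unadjusted p = 0.0275). Both genes did not overlap between the groups, and GTE 1 was the highest in each.

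Genes of dividing cells followed the same libraries. All 22 mitosis genes lay above control, with a median of 0.79 and of 0.41 without GTE 1. The number higher at an unadjusted p under 0.05 was 4, but 0 without GTE 1, control 2 or control 4, and 22 without GTE 4. It was 10 without control 1, 9 without control 3 and 6 without GTE 2. All 21 DNA replication genes lay above control too (median 0.59, and 0.30 without GTE 1), with 0 at that threshold and 19 without GTE 4, 3 without control 1, 2 without GTE 2 and 1 without control 3. With the granule mean as a covariate the medians were 0.22 for mitosis and 0.15 for replication. Coffee against the same controls had medians of 0.98 for mitosis and 0.71 for replication. Whether more marrow or more division in another tissue stood behind these values cannot be told apart in bulk RNA.

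B lineage genes were 10 of 11 above control (median 0.44, and 0.37 for coffee against the same controls). At an unadjusted p under 0.05, 4 were higher, 0 without GTE 1, GTE 3 or control 4, and 1 without control 2 or control 3. Several antibody gene segments were higher without overlap between the groups. Those named here were picked for a large difference without overlap, so the lack of overlap was a condition of naming them. The share of all antibody segments that were higher, level or lower was not counted. Igkv4-70 had 13.2, 4.50, 64.7 and 3.82 FPKM in GTE and 0, 1.41, 1.06 and 1.02 FPKM in control (2.82 ± 0.98, unadjusted p = 0.0147). Igkj3, a joining segment of the kappa light chain, had 21.4, 11.8, 18.3 and 10.1 FPKM in GTE and 3.27, 1.28, 4.24 and 4.52 FPKM in control (1.94 ± 0.44, unadjusted p = 0.000931). Such segments are short and closely related, so reads may be split between them. The antibody constant and plasma cell list had a median of 0.37, and 0.20 without GTE 1, against 0.44 for coffee minus the same controls.

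Tissues that lie next to the cochlea differed widely between libraries. Gh, the growth hormone of the pituitary, had 72.6, 7.16, 72.5 and 23.2 FPKM in GTE and 1577, 688, 355 and 120 FPKM in control, the largest named difference on the lower side (-3.86 ± 1.45, unadjusted p = 0.0218). Prl, which encodes prolactin, had 3.32, 1.79, 5.47 and 1.06 FPKM in GTE and 76.9, 25.1, 23.5 and 4.09 FPKM in control (-2.66 ± 1.00, unadjusted p = 0.0224), with GTE 3 just above control 4. All 4 tested hormone genes lay below control, and the summed level of the 7 listed genes was between 12.5 and 80.2 FPKM in GTE and between 129 and 1942 FPKM in control. Of these genes, 3 had an unadjusted p under 0.05, and 1 did without control 1. The pituitary is no part of the cochlea, and how it entered the libraries was not tested.

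Genes of motile cilia, found in the lining of the middle ear, had 15 of 16 members below control (median -0.59, and -0.44 without GTE 1). At an unadjusted p under 0.05, 7 were lower, 2 without GTE 1 or control 3 and 3 without GTE 3. Foxj1, the master factor of ciliated cells, had 4.25, 7.85, 6.32 and 10.7 FPKM in GTE and 14.4, 13.2, 31.4 and 11.2 FPKM in control (-1.11 ± 0.34, unadjusted p = 0.00733). All GTE values lay below the controls, with GTE 4 close to control 4. Fat genes had 13 of 13 members below control (median -0.91, -0.54 without GTE 1, -0.53 without GTE 2, -1.40 without GTE 3 and -0.38 with the granule covariate), with 1 at that threshold, 3 without GTE 3 and 2 without GTE 4. The brown fat gene Ucp1 ranged between 0.0745 and 123 FPKM in GTE and between 47.4 and 423 FPKM in control. Skeletal muscle genes were also below control in 13 of 13 (median -0.67, -1.03 without GTE 1, and between -1.28 without control 2 and -0.06 without control 3), with 0 at that threshold. The muscle actin Acta1 ranged between 0.264 and 18.97 FPKM in GTE and between 0.603 and 114 FPKM in control.

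**Figure D4:**
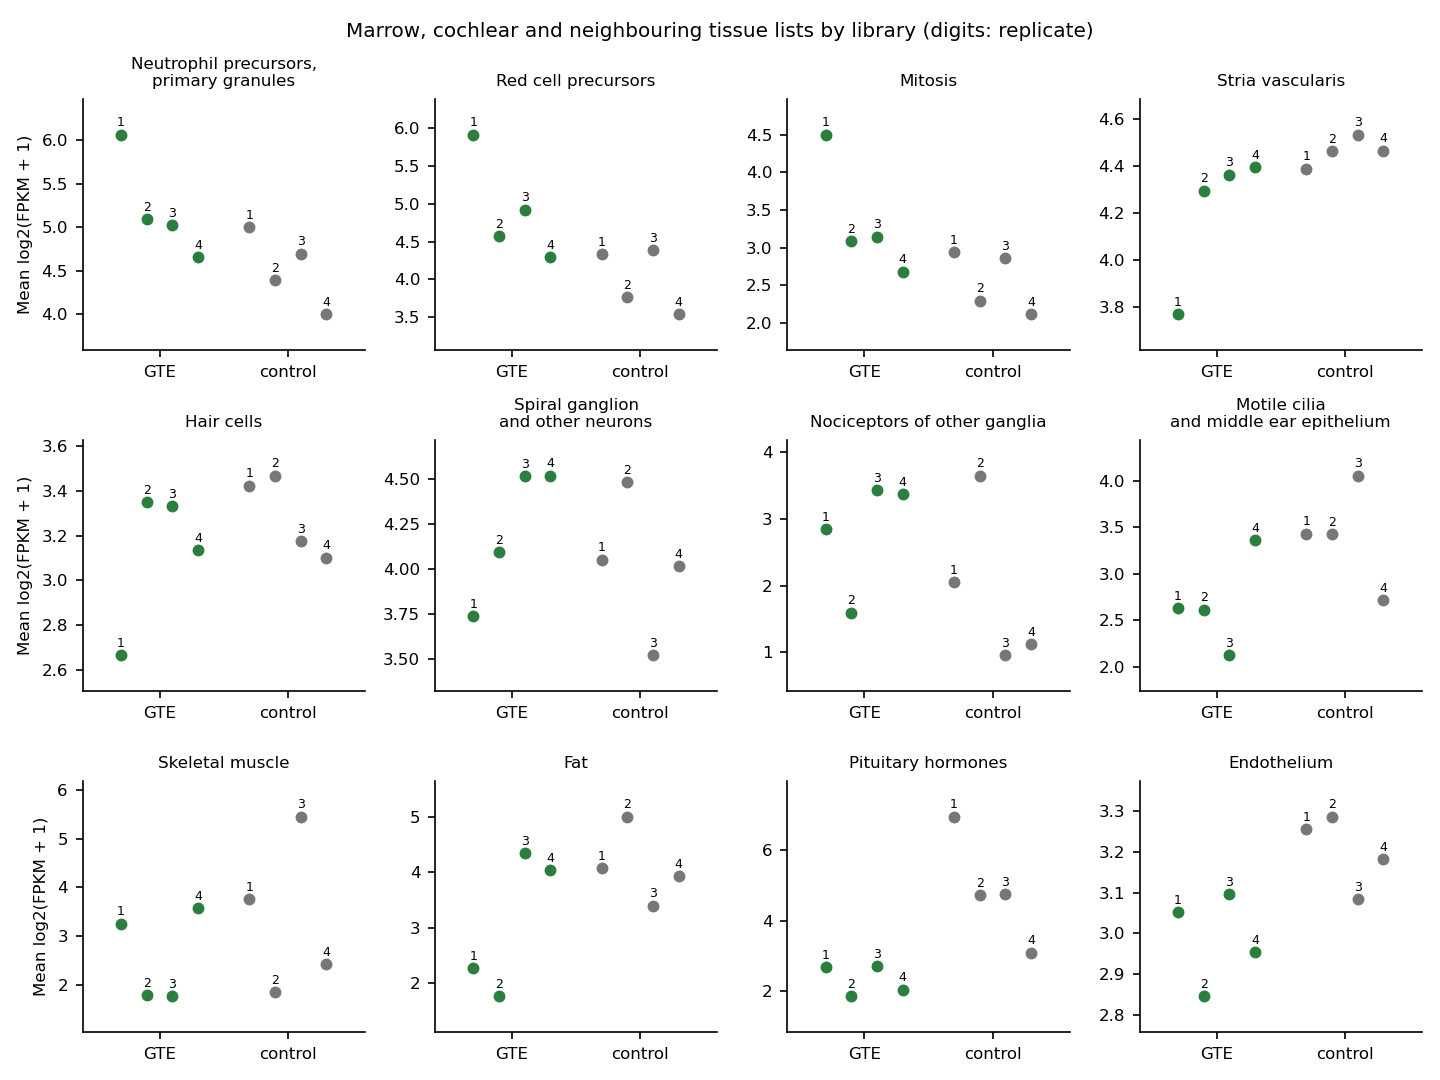
Mean log2(FPKM + 1) over the tested members of 12 gene lists in each library, with GTE on the left and control on the right of each panel, digits for the replicate, and a separate axis per panel that does not start at 0. GTE 1 is the highest library in the granule, red cell and mitosis lists and the lowest in the stria and hair cell lists, and all 4 GTE libraries lie below the controls in the pituitary list.

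Immune lists outside the marrow showed little. Of 22 tested interferon response genes, 0 had an unadjusted p under 0.05 in either direction, and the same held for 8 genes of MHC class II presentation. Of 18 cytokine and chemokine genes, 3 were lower, and 1 without GTE 1 or GTE 4. Il33, an alarm cytokine, had 3.81, 7.47, 7.87 and 7.89 FPKM in GTE and 16.2, 9.61, 10.6 and 13.7 FPKM in control (-0.82 ± 0.24, unadjusted p = 0.00551). Among 14 complement genes 1 was lower (0 without GTE 2, GTE 3 or control 2, 2 without control 3 and 3 without control 4). This was C4b, a complement component, with 21.4, 19.4, 20.2 and 20.5 FPKM in GTE and 23.2, 24.2, 21.6 and 27.0 FPKM in control (-0.22 ± 0.09, unadjusted p = 0.0289). Of 16 macrophage genes, 11 lay above control and 5 below (6 above and 10 below without GTE 1). At an unadjusted p under 0.05, 3 were lower and 1 higher (2 higher without GTE 3). The hemoglobin scavenger receptor Cd163 had 2.94, 1.81, 2.29 and 2.17 FPKM in GTE and 3.41, 2.87, 3.05 and 3.30 FPKM in control, which overlap (-0.34 ± 0.10, unadjusted p = 0.00558). The higher gene was P2ry12, with 4.14, 3.73, 3.42 and 4.28 FPKM in GTE and 3.35, 2.22, 2.72 and 3.02 FPKM in control, without overlap (0.36 ± 0.11, unadjusted p = 0.00735).

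Housekeeping lists were close to level. The median difference was 0.06 over 24 cytosolic ribosomal proteins (-0.01 without GTE 1), -0.09 over 24 nuclear genes of the respiratory chain (-0.02 without GTE 1 and 0.04 with the granule covariate, with 22 of the 24 below control) and -0.00 over 12 mitochondrially encoded genes, with 0 members at an unadjusted p under 0.05 in each. The mitochondrially encoded median was 0.18 without GTE 1, the library with the smallest mitochondrial share. Bone and cartilage lists had medians of -0.01 (osteoblasts), 0.18 (osteoclasts, 0.05 without GTE 1) and -0.12 (cartilage, -0.02 without GTE 1). Macrophage and T and NK cell lists had medians of 0.09 and 0.23, and -0.08 and 0.07 without GTE 1.

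**Figure D5:**
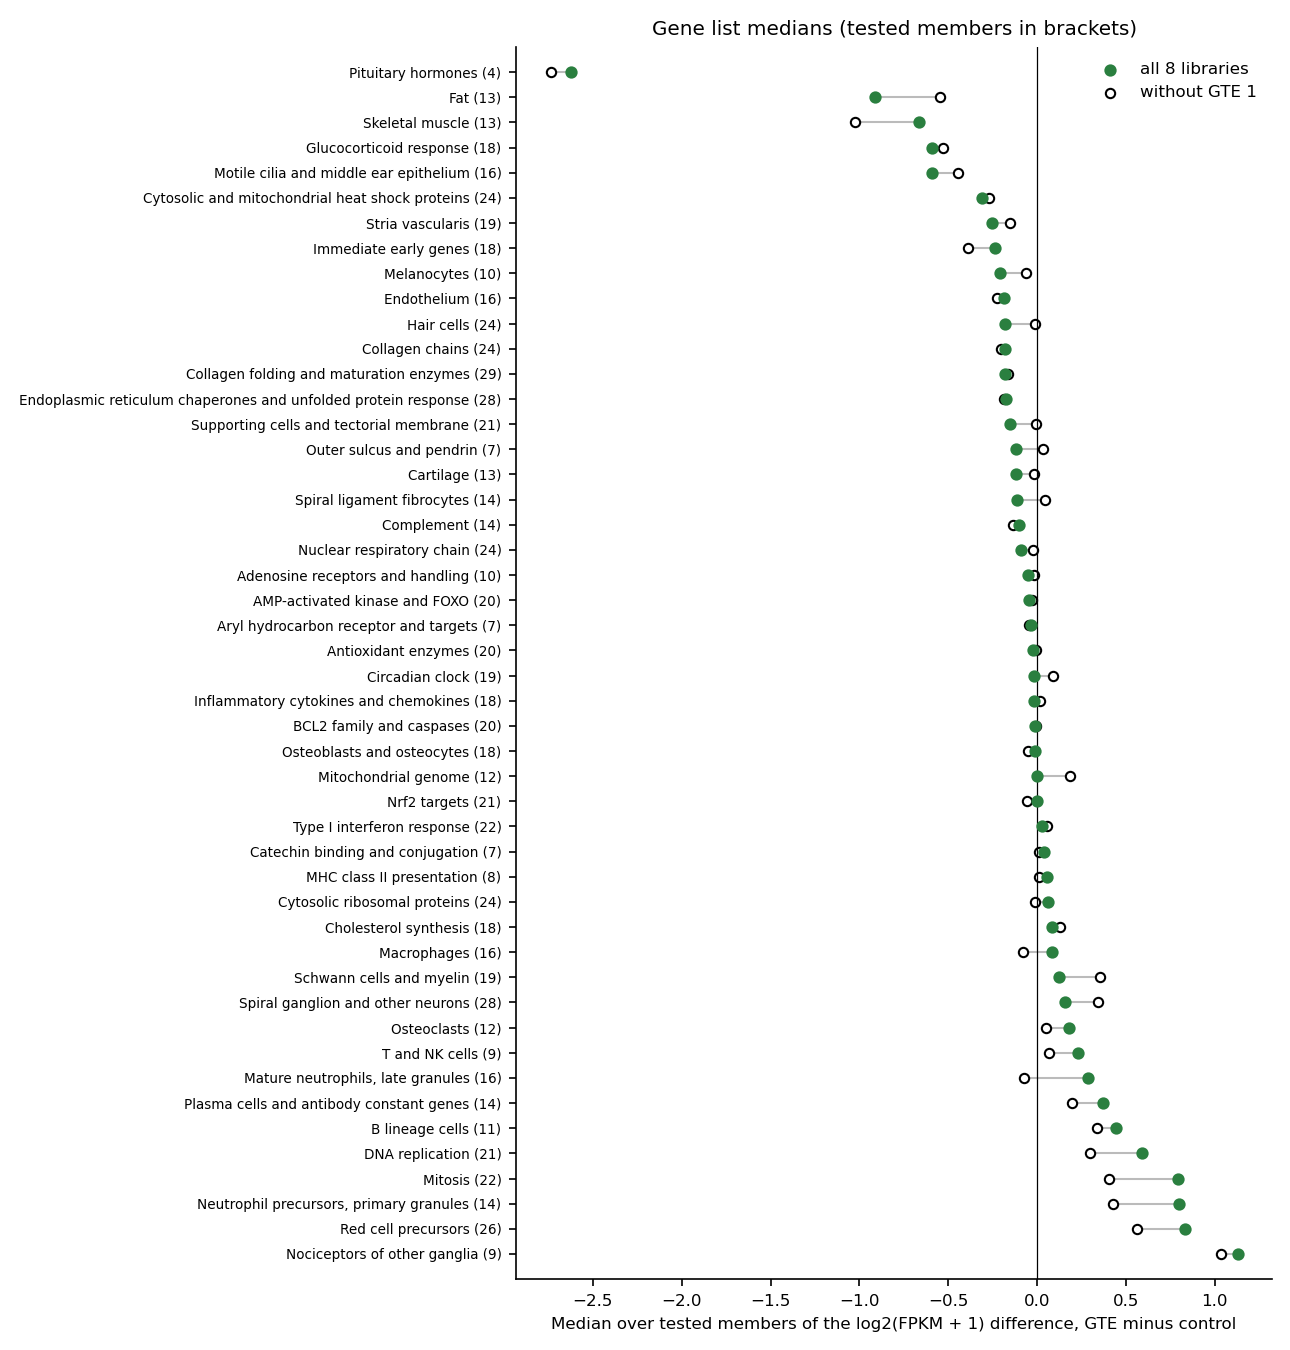
Median GTE minus control difference of log2(FPKM + 1) over the tested members of each of the 48 gene lists (number of members in brackets), with all 8 libraries (green) and without GTE 1 (open circles). The glucocorticoid, heat shock, endothelial and endoplasmic reticulum lists keep nearly the same median without GTE 1, while the marrow and hair cell lists move towards 0.

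GTE was also set against coffee, which asks where the GTE and coffee differences from control were unlike each other. At an adjusted p under 0.05, 0 of 15264 genes (0.0%) passed limma. At an unadjusted p under 0.05 there were 1046 (6.85%), 727 higher in GTE (4.76%) and 319 lower (2.09%). That count was 3182 without GTE 1, 1726 without coffee 3, 679 without GTE 4, 648 without coffee 4 and 563 without GTE 2. Serpinh1 had 89.2, 93.1, 100 and 91.3 FPKM in coffee, inside the GTE range, and the GTE minus coffee difference was -0.07 ± 0.09 (adjusted p = 0.851). The smallest p belonged to Ace, which averaged 2.73 FPKM in GTE, 5.59 in coffee and 4.80 in control (GTE minus coffee -0.81 ± 0.11, adjusted p = 0.124). C4b averaged 20.4 FPKM in GTE, 30.9 in coffee and 24.005 in control (-0.57 ± 0.09, adjusted p = 0.339). On the higher side, Pdk1, a kinase that holds pyruvate back from mitochondria, averaged 12.9 FPKM in GTE, 9.07 in coffee and 10.6 in control (0.46 ± 0.08, adjusted p = 0.548). For the chaperones, Hspa8 averaged 342 FPKM in GTE, 472 in coffee and 564 in control, and Hspa5 averaged 130 FPKM in GTE, 162 in coffee and 204 in control (GTE minus coffee -0.47 ± 0.13 and -0.31 ± 0.14, unadjusted p = 0.00429 and 0.0447).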

How the data were processed

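RNA-seq libraries of whole cochlea were read as FPKM values per gene, which the authors deposited as a normalized unit. The submitters' processing notes name Trimmomatic, HISAT2, Cufflinks and HTSeq and the build mm10; versions, roles, gene annotation and strand setting were not stated. FPKM values are whole multiples of what 1 fragment is worth on a gene, from which the depth was recovered (31897 of 34538 genes, 92.4%, were whole within 0.01 fragments in all 12 libraries). The members and gene lists were chosen with earlier results of these data known. Genes that reached 1 FPKM in 4 or more of the 8 GTE and control libraries were tested on log2(FPKM + 1) with limma 3.58.1 in R 4.3.3, as 1 fit of 3 group means over all 12 libraries with a mean-variance trend, two-sided, with Benjamini-Hochberg adjustment over 15264 genes. Every p-value in the text is from this fit unless it is called a permutation p, and fold changes on this scale understate those of low genes. The script was tested on simulated data. Gene lists were described by counts and medians, without a test. Of 853 listed genes 779 were tested.

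Genes were named by 1 rule: those past the adjusted threshold, the 10 smallest p per direction with a mean of at least 2 FPKM, the 10 largest differences per direction without overlap with a mean of at least 5 FPKM, up to 6 members of smallest p per list, and a set of known cochlear and chaperone genes. P3h1, Sparc, Col1a1, Eln, Syvn1, Dnajc3, Pdia6, Canx, Calr, Hsp90b1, Dnajb9, Atf4, Hspa1a, Hspa1b, Hsf1, Hspe1, Hspd1, Rbm3, Sgk1, Mt1, Npas2, Per2, Per3, Tef, Ciart, Bhlhe41, Prkaa1 and Hmox1 were chosen after their values were seen. Promoters were the 250 bases upstream of the start in RefSeq on GRCm38.p6. Alternatives were other pseudocounts, filters and scalings, the 8 libraries alone, a replicate block, sample weights, a covariate, each library left out, and, chosen after seeing the data, voom on the recovered fragments and 3 libraries left out together. Some genes are not reported here.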

Additional observations from a re-analysis of the deposited data

Results flagged for a closer look

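Within groups of 4, the gap between the highest or lowest library and its nearest neighbour was set against the range of the group, and values past Dixon's 95% critical ratio were marked. The screen covered 340 groups and marked 22 values, and chance alone marks about 1 in 20 groups.

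GTE 1 stood apart in 8 of these. It was low for Coch (1442 FPKM, others from 2035), Sult1a1 (23.5 FPKM, others from 33.0), Jag1 (5.021 FPKM, others from 6.62) and Il33 (3.805 FPKM, others from 7.47). In mean log2(FPKM + 1) over a list it was low for the stria vascularis (3.77), spiral ligament fibrocytes (6.422) and cartilage (3.498), and high for immediate early genes (3.638, others up to 3.17).

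GTE 3 was high for P4ha1 (19.24 FPKM, others up to 13.2), Hspa8 (424.9 FPKM, others up to 321), Stip1 (83.99 FPKM, others up to 70.4), Per2 (11.63 FPKM, others up to 5.04), Per3 (11.26 FPKM, others up to 6.92) and Igkv4-70 (64.73 FPKM, others up to 13.2), and for the glucocorticoid list mean (4.502, others up to 4.44).

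Among the control libraries, control 1 was high for the clock list mean (3.474), and control 2 for Ehd2 (13.51 FPKM), Adora2a (2.387 FPKM) and P2rx3 (16.59 FPKM). Control 3 was high for Atf4 (112.6 FPKM) and Foxj1 (31.41 FPKM), and control 4 for the mitochondrially encoded list mean (9.511).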

How the results depend on the processing

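The call of Serpinh1 depended on the settings. The number of genes past the adjusted p was 1 as reported and 0 with mitochondrial genes left out, with the 8 libraries alone, with the granule covariate and with GTE 1, coffee 1 and coffee 4 left out together. With the replicate number as a block it was 0 as well (Serpinh1 adjusted p = 0.0538, and 1822 genes at an unadjusted p under 0.05). The residual correlations of same-numbered GTE and control libraries were 0.423, -0.213, -0.403 and 0.034, without a common sign. Whether same-numbered libraries were handled together was not stated, and so few correlations cannot decide it. Sample weights gave 4 genes, 1 higher and 3 lower, among them Depp1 and Tspan11 (adjusted p = 0.0354 each). Leaving out single libraries gave between 0 and 1. Genes at an unadjusted p under 0.05 were 2204 without a filter and 740 with a mean of at least 5 FPKM, and between 919 and 1819 with single libraries left out. Genes without overlap were 544 with a mean of at least 5 FPKM, against 898. Against coffee, sample weights gave 535 genes, 448 higher and 87 lower, and leaving out single libraries gave between 0 and 1, with 1 without coffee 2. At an unadjusted p under 0.05 the count against coffee was 1046, and 4609 with sample weights, 1940 without a filter, 1915 with the granule covariate and 645 with a mean of at least 5 FPKM. The causes were not tested. Serpinh1 was lower in GTE in all 26 alternatives. Of the 48 list medians, 24 kept their sign in every setting run, among them the collagen, endoplasmic reticulum, heat shock, glucocorticoid, endothelial, stria, hair cell, mitosis and pituitary lists, and 24 changed it in at least 1 setting, among them the clock, Nrf2, antioxidant, interferon, fibrocyte, neuron and Schwann cell lists. Depth sets a floor of 0.0604 to 0.0731 FPKM for 3 fragments on 2000 bases.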
